A study of Mus musculus with 48 samples.

Results

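Transcripts of T cells and natural killer (NK) cells were followed in macrophages and neutrophils sorted from 4 mouse breast tumours. The set holds 9 genes of the 24054 in the count table: Cd3d, Cd3e, Cd3g, Cd8a, Gzma, Gzmb, Nkg7, Prf1 and Klrk1. They were chosen by name as markers of lymphoid cells, which neither gate was set to collect, and all 9 had a line in the table. The study profiled RNA of cultured breast tumour lines and of tumour-associated myeloid cells in triplicate. Macrophages were sorted as DAPI-, CD45+, CD11b+, Ly6G-, Ly6C- and F4/80+ cells, and neutrophils as DAPI-, CD45+, CD11b+, Ly6G+ cells with medium to low Ly6C. Both came from tumours of the lines T11 and 2208L, labelled BALB/C, and E0771 and AT3, labelled C57BL/6, with 3 libraries of each sort from each tumour. The first E0771 library of each sort is labelled BALB/C, unlike the others of that tumour. The labels do not say whether replicates came from separate animals, so a p-value here rests on the spread among libraries, which may be technical.

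T cells recognise antigen through a receptor that signals through the CD3 chains, and cytotoxic T cells carry CD8 as a co-receptor. Cytotoxic T cells and NK cells kill target cells by releasing granules with perforin, which opens membranes, and granzymes, which are serine proteases that enter through them. In breast tumours, the number and state of such cells are widely studied beside the macrophages and neutrophils that share the tissue.

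Total counts ran from 1862321 to 6240372 in macrophage libraries and from 669862 to 3341097 in neutrophil libraries, and outside the ribosomal RNA precursor Rn45s from 683150 to 1755895 and from 470712 to 1185233. Levels are counts scaled to a common total outside Rn45s (CPM). Macrophage markers were higher in macrophages for 11 of 11 genes and neutrophil markers were lower for 8 of 8 tested on average over the tumours. The exception within a tumour was T11, where the summed neutrophil markers were 6032 ± 2532 CPM (SD, n = 3) in macrophages and 4643 ± 2353 CPM in neutrophils, mostly from Mmp9 in the macrophages. Neutrophils also held macrophage markers, which summed to 6944 ± 1212 CPM in 2208L, 4089 ± 904 in AT3, 1593 ± 56 in E0771 and 1312 ± 379 in T11. In 2208L macrophages they summed to 21647 ± 3989 CPM. As a measure of background, 1459 genes of olfactory and vomeronasal receptors, which few tissues outside the nose express, were counted per base of exon in the same libraries. Their summed level ran from 876 to 3275 CPM in macrophages and from 3879 to 18994 CPM in neutrophils. A gene was called above background where its counts per exon base, summed over the 3 libraries of a group, were at least 10 times the receptor rate and it had more than 3 counts. Libraries of 7 cultured lines, 21 in all, were measured the same way as material without lymphocytes.

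The T and NK cell transcripts stood at least 10 times above background in 2 of the 8 sorted groups, the macrophages of 2208L and E0771 tumours, and the 2 groups led with different genes. In sorted bulk RNA, more cells of a kind and more RNA per cell cannot be told apart. In 2208L macrophages 5 of 9 were above it, where 38.7% of all genes were: Cd3d at 17.9 times the receptor rate, Cd3e at 16.3, Cd8a at 15.8, Nkg7 at 24.2 and Gzmb at 10.1. In E0771 macrophages 6 of 9 were above it, where 40.2% of all genes were: Gzma at 79.9 times the receptor rate, Gzmb at 68.3, Nkg7 at 41.1, Prf1 at 17.7, Cd3d at 13 and Cd8a at 11.1. None was above it in T11 macrophages, where 43.7% of genes were, or in AT3 macrophages, where 44.0% were. At this ratio the share of members was above that of all genes in those 2 groups only. The groups depend on the ratio chosen: at a ratio of 5, members passed in 7 of the 8 groups, all but AT3 neutrophils. At that ratio 8 members passed in each of 2208L and E0771 macrophages (59.2% and 63.2% of all genes). In T11 macrophages 3 passed, Gzmb, Nkg7 and Klrk1 (57.3% of genes), and in AT3 macrophages 1, Nkg7 (57.9%). In neutrophils 3 passed in T11 (22% of genes), 2 in 2208L (47.8%) and 3 in E0771 (48.4%). The share of members was thus above that of all genes in T11 neutrophils too. At a ratio of 20, 1 of 9 members passed in 2208L macrophages, Nkg7, a share below the 23.1% of all genes. In E0771 macrophages 3 passed, Gzma, Gzmb and Nkg7 (21.2% of genes), and none passed in another sorted group. Just inside the ratio of 10 lay Gzmb in 2208L macrophages, with 6, 14 and 1 counts. Just outside it lay Gzmb in E0771 neutrophils at 8.14 and Cd3e in E0771 macrophages at 8.13 times the rate.

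No member reached a ratio of 10 in neutrophils, where 4.27% (T11), 23.2% (2208L), 14.7% (E0771) and 9.94% (AT3) of all genes did. Their ratios there ran from 1.21 to 8.14, with a median over genes and tumours of 2.70. In the cultured lines the ratios ran from 0.961 to 12.4 with a median of 2.84, and 1 of 63 gene and line pairs, Gzma in 67NR at 12.4, was above it, where 41.0% of all gene and line pairs were. The neutrophil ratios thus lay in the range of the lines, though their CPM were higher. Receptor background was higher in neutrophils, so a signal of the size called in macrophages could stay below the ratio there. Cd8a, for example, had a mean of 25.6 CPM in T11 neutrophils, below the threshold, and 25.2 CPM in 2208L macrophages, above it. Summed over the 9 genes, neutrophils held 120 ± 43.9 CPM (SD, n = 12) and lines 20.6 ± 7.71 CPM (n = 21). The sum was 171 ± 24.2 CPM in T11 neutrophils and 123 ± 19.8 CPM in 2208L macrophages (n = 3 each).

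**Figure D1:**
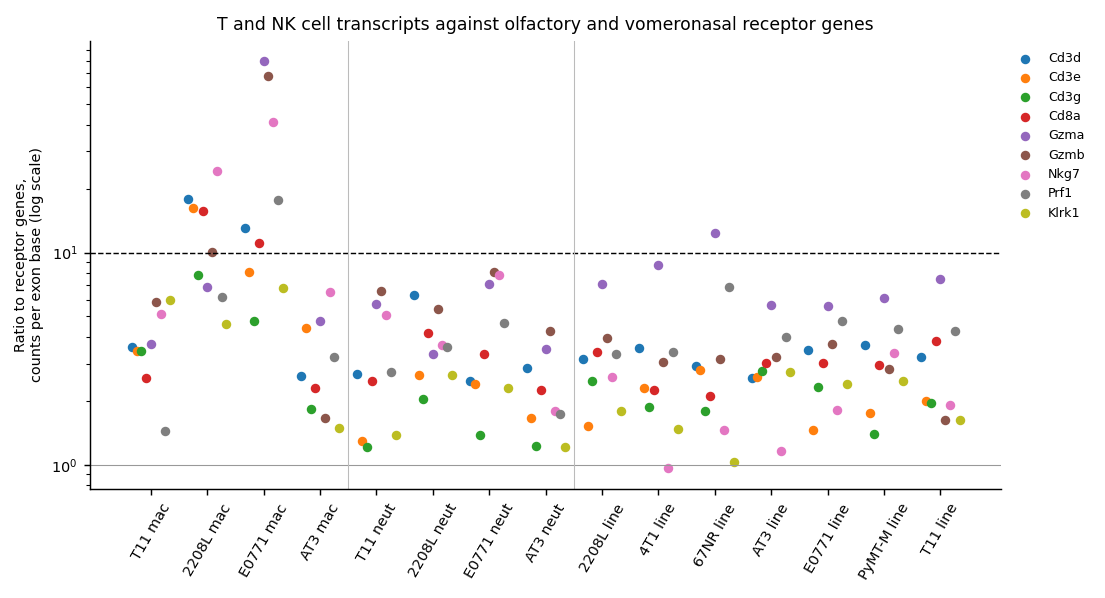
Counts per exon base of each T and NK cell gene divided by the rate of the receptor genes, on a log scale, for the 8 sorted groups (mac, macrophages; neut, neutrophils) and 7 lines; each point sums 3 libraries, and the dashed line marks a ratio of 10. Granzyme points of E0771 macrophages lie highest, at 79.9 and 68.3, and no neutrophil point reaches the line.

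The CD3 chains and Cd8a were highest in 2208L and E0771 macrophages. Cd3d (chromosome 9, 44981786 to 44987339, ENSMUSG00000032094.8), a CD3 chain, had 6.72, 17 and 23 CPM in 2208L macrophages and 12.2, 13.2 and 12.4 CPM in E0771 macrophages. In T11 macrophages it had 0, 1.71 and 3.62 CPM and in AT3 macrophages 0, 0.674 and 2.22 CPM. Every 2208L and E0771 library was above every T11 and AT3 library, and 2208L and E0771 overlapped.

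Cd3e (chromosome 9, 44998740 to 45009627, ENSMUSG00000032093.7), the chain bound by the common anti-CD3 antibodies, had 23.2, 21.2 and 51.1 CPM in 2208L macrophages and 31.3, 16.1 and 9.78 CPM in E0771 macrophages. It had 1.5, 6.83 and 0.905 CPM in T11 macrophages and 3.40, 1.35 and 6.67 CPM in AT3 macrophages. The higher pair of tumours did not overlap the lower pair. An exon of Cd3e overlaps the gene model Gm48719 on the other strand, and whether the counting used strand is not given in the sources used here, so reads of the 2 cannot be separated. Cd3g (chromosome 9, 44969572 to 44980431, ENSMUSG00000002033.14), the third chain, had 1 to 14 counts in every macrophage library, and its E0771 and T11 values overlapped.

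Cd8a (chromosome 6, 71373427 to 71379173, ENSMUSG00000053977.13), which encodes a chain of the CD8 co-receptor, had 15.7, 38.2 and 21.7 CPM in 2208L macrophages and 36.7, 10.2 and 18.7 CPM in E0771 macrophages. It had 1.5, 2.85 and 2.71 CPM in T11 macrophages and 3.40, 1.35 and 0.741 CPM in AT3 macrophages. Again the 2 pairs of tumours did not overlap.

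The granzymes separated E0771 macrophages from the macrophages of every other tumour. Gzmb (chromosome 14, 56258838 to 56262260, ENSMUSG00000015437.5), granzyme B, had 29.9, 71.7 and 55.1 CPM (22, 49 and 62 counts) in E0771 macrophages, against 4.48, 11.9 and 1.28 CPM in 2208L. It had 2.24, 2.85 and 0.905 CPM in T11 macrophages and 0.850, 0 and 0.741 CPM in AT3 macrophages. No library of the other 3 tumours reached the lowest of the E0771 libraries, the one labelled BALB/C.

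Gzma (chromosome 13, 113093825 to 113100981, ENSMUSG00000023132.8), granzyme A, had 9.53, 71.7 and 47.1 CPM in E0771 macrophages, where the library labelled BALB/C was again the lowest. It had 2.99, 4.24 and 1.28 CPM in 2208L macrophages, and at most 2.55 CPM in any T11 or AT3 macrophage library. E0771 did not overlap the other tumours. Prf1 (chromosome 10, 61297833 to 61304680, ENSMUSG00000037202.6), perforin, followed the same order, with 19.1, 27.8 and 25.8 CPM in E0771, 11.2, 4.24 and 3.83 CPM in 2208L, and 0 to 2.96 CPM in T11 and AT3 macrophages.

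Nkg7 (chromosome 7, 43437073 to 43438249, ENSMUSG00000004612.9), a granule membrane protein, had 8.17, 23.4 and 25.8 CPM in E0771 macrophages and 16.4, 8.48 and 0 CPM in 2208L macrophages, which overlapped. It was at 0 in 2 of 3 T11 libraries and 1 of 3 AT3 libraries, with 3.74 and 2.69 CPM as their highest values. Klrk1 (chromosome 6, 129610323 to 129623864, ENSMUSG00000030149.15), the activating receptor NKG2D, was spread more evenly. Its macrophage values were 3.74, 6.83 and 26.2 CPM in T11, 14.9, 9.33 and 21.7 in 2208L, 9.53, 23.4 and 38.2 in E0771 and 1.70, 3.36 and 1.48 in AT3, so AT3 lay below the others without overlap. It stayed under the background threshold in every group.

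**Figure D2:**
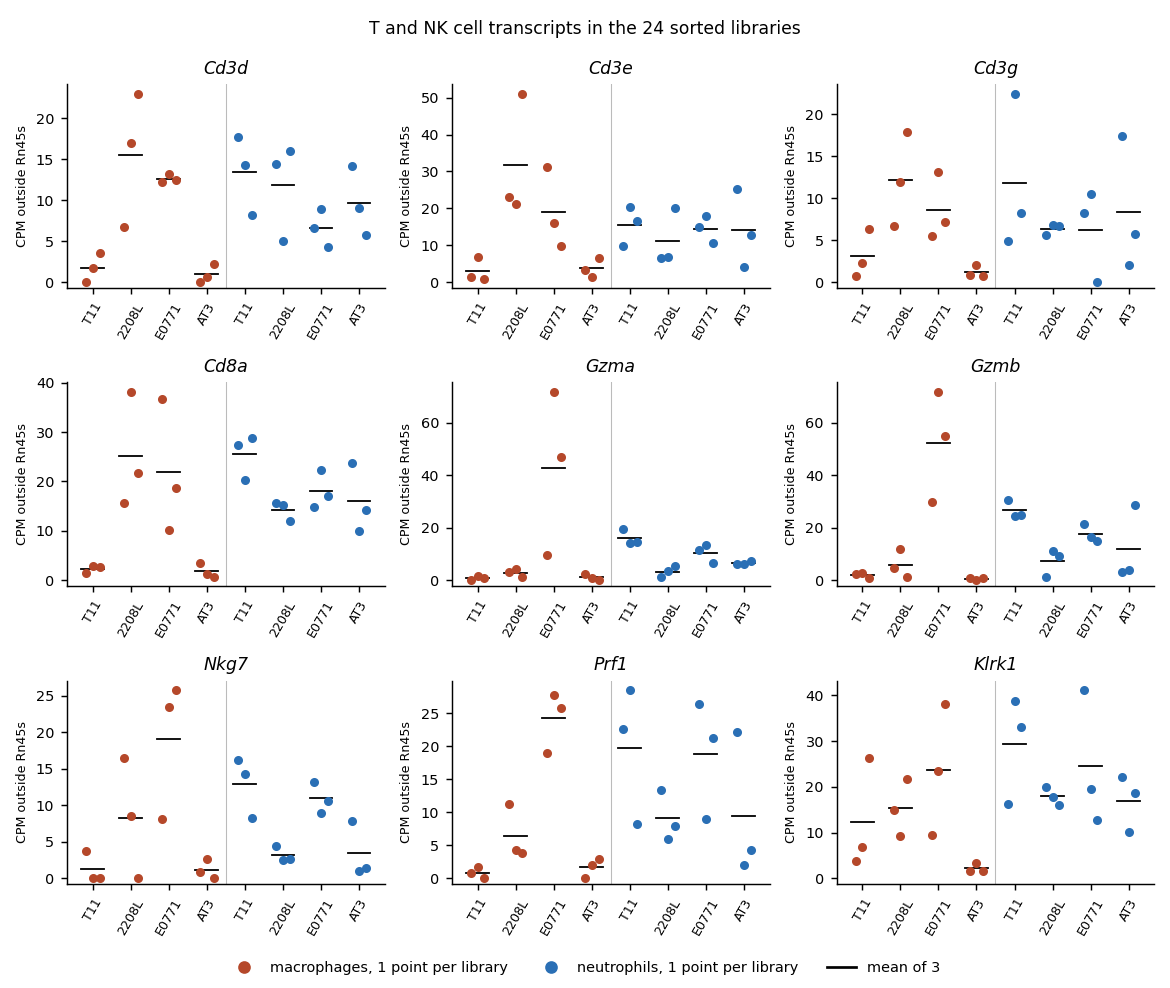
CPM outside Rn45s of the 9 genes in each of the 24 sorted libraries, macrophages in red and neutrophils in blue, with a bar at each mean of 3. Gzma, Gzmb and Prf1 are highest in E0771 macrophages, at means of 42.8, 52.3 and 24.2 CPM, and the T11 and AT3 macrophages lie near 0 for most genes.

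The promoters of the 2 granzymes and of Cd8a are shown because these genes mark the 2 patterns, Gzma and Gzmb in E0771 macrophages and Cd8a in both high tumours. They are the 250 bases before the RefSeq start (GRCm38.p6, 5′ to 3′ on the gene's strand), at chr13:113100982-113101231 (minus strand) for Gzma, chr14:56262335-56262584 (minus strand) for Gzmb and chr6:71373177-71373426 (plus strand) for Cd8a. Capitals mark matches on either strand to the Runx core TGTGGT (reverse complement ACCACA) and to the AP-1 motif TGAGTCA, 2 of 3 motifs searched; the third, a T-box half-site AGGTGTGA, had a match in Nkg7 only, and none of the motifs contains another.
Gzma: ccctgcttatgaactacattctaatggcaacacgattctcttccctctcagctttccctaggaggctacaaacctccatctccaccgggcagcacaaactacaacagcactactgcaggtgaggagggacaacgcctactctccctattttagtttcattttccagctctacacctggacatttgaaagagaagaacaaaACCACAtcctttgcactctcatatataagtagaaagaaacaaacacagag
Gzmb: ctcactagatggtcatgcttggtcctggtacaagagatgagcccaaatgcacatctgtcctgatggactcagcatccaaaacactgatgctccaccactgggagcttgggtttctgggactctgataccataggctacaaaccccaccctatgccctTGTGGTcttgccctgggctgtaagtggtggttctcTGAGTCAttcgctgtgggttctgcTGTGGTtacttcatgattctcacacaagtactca
Cd8a: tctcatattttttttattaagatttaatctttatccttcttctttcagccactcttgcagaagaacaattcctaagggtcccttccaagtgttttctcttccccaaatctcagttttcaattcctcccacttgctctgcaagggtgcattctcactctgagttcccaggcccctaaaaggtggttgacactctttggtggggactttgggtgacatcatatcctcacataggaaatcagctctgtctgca

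All 9 members were matched by symbol. The Runx core was present in the windows of Gzma, Gzmb, Nkg7, Prf1 and Klrk1 and in none of those of Cd3d, Cd3e, Cd3g and Cd8a, and 14.0% of the 32536 distinct windows held it. The AP-1 motif was present in Gzmb only, and in 4.45% of all windows, and the T-box half-site in 1.12% of them. A match describes letters in the window and does not show binding.

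In macrophages, the tumours differed for 8 of 9 members in edgeR's quasi-likelihood test (any difference, adjusted p below 0.05), where 35.5% of the 14715 genes tested did. Gzmb (adjusted p = 3.74e-07) and Gzma (6.7e-06) gave the smallest values, then Cd8a (0.000122), Cd3e (0.00113), Prf1 (0.00146), Cd3d (0.00688), Nkg7 (0.0179) and Klrk1 (0.0221). Cd3g did not pass (0.0688). A gene could enter this test with enough counts in 3 libraries, so a low gene could enter through 1 tumour alone. Gzma and Gzmb had means of 42.8 and 52.3 CPM in E0771 macrophages and at most 2.84 and 5.88 in another tumour. For such genes the share over all genes is not a like comparison, here or between 2 tumours below. Of the receptor genes 27 entered, and 1 of them differed. Without the E0771 library labelled BALB/C, 8 members passed. Klrk1 lost its call without the first AT3, the third AT3 or the third E0771 library (adjusted p from 0.065 to 0.103), and Nkg7 without the third E0771 library (0.068).

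Tumours of one labelled strain were then compared directly. In AT3 macrophages 7 of the 9 members were lower than in E0771 macrophages, where 8.69% of genes were lower, and none was higher, where 9.68% were. Gzmb was lower by a log2 difference of -5.99 ± 0.87 (SE, adjusted p = 1.07e-05) and Gzma by -4.80 ± 0.93 (adjusted p = 0.000518). Nkg7 (-3.40 ± 1.14), Prf1 (-3.28 ± 0.92), Cd3d (-3.09 ± 1.01), Cd8a (-3.09 ± 0.74) and Klrk1 (-2.93 ± 0.77) were lower as well. Cd3e (-1.81 ± 0.71, adjusted p = 0.0703) and Cd3g (-2.22 ± 1.00, adjusted p = 0.113) did not pass. The median over the 9 was -3.09, and over all genes -0.06. Without the BALB/C-labelled library 6 members passed, the exception being Cd3d at an adjusted p of 0.052, and without the first AT3 library 4 passed, with Cd3d, Nkg7 and Prf1 lost. Cd3d also lost its call without the second AT3 library or either other E0771 library, Nkg7 without the third AT3 library or without the second or the third E0771 library, and Klrk1 without the third E0771 library. The calls of Gzma, Gzmb and Cd8a held in every fit that left out 1 library.

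In 2208L against T11 macrophages 3 of 9 members were higher, where 7.77% of genes were, and 0 were lower, where 7.9% were. They were Cd3d by 2.93 ± 0.93 on the log2 scale (adjusted p = 0.0285), Cd3e by 3.05 ± 0.70 (0.00204) and Cd8a by 3.21 ± 0.70 (0.00123). Nkg7 (2.70 ± 1.14, adjusted p = 0.11) and Prf1 (2.66 ± 1.00, 0.069) did not pass, nor did Gzma (1.46 ± 1.05) or Gzmb (1.38 ± 0.77). Nkg7 gained a call without the third 2208L library (3.23, adjusted p = 0.0486) or the first T11 library (adjusted p = 0.0215). In the latter fit both remaining T11 libraries were at 0, so its value of 6.33 is no measure of size, and without the first 2208L library it was 1.57. Cd3d lost its call when any of 4 libraries was left out (2208L libraries 2 and 3, T11 libraries 1 and 2), with adjusted p from 0.083 to 0.14. The direct difference between E0771 and 2208L macrophages was not tested.

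**Figure D3:**
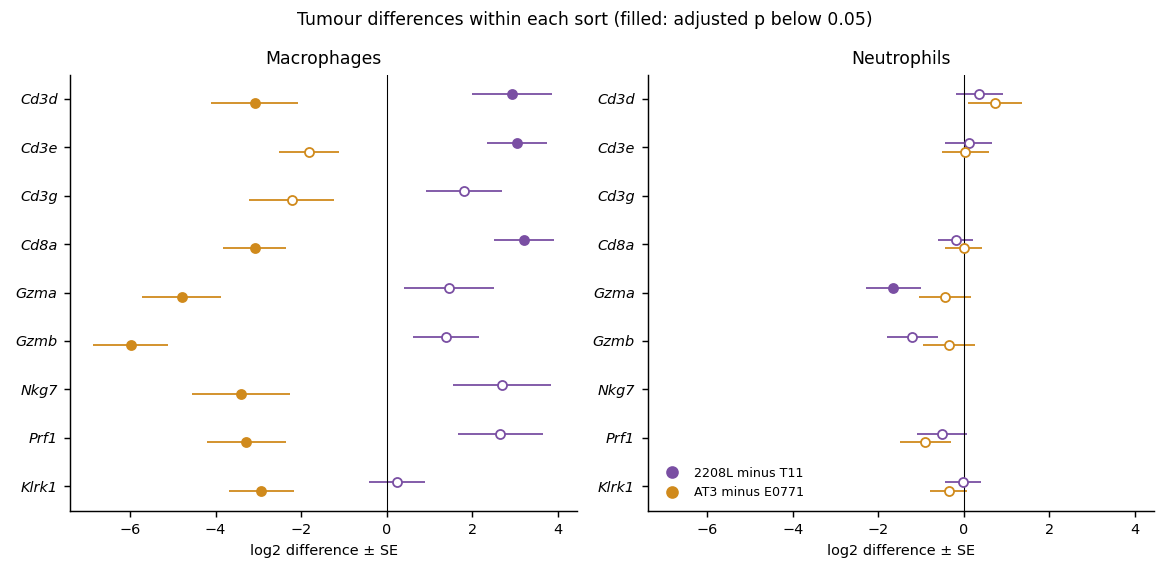
Log2 differences between tumours of one labelled strain with their SE, in macrophages and in neutrophils; filled points passed at an adjusted p below 0.05, and Cd3g and Nkg7 were under the count filter in neutrophils. In macrophages 7 points of AT3 minus E0771 and 3 of 2208L minus T11 are filled, and in neutrophils only Gzma in 2208L minus T11 at -1.65.

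Receptor background moved with these differences. Its mean was 2516 CPM in 2208L and 2956 CPM in E0771 macrophages, against 1416 CPM in T11 and 1130 CPM in AT3. When libraries were instead scaled to their receptor-gene counts, 7 of 9 members still differed between tumours in macrophages (Klrk1 lost, adjusted p = 0.0838), 6 were lower in AT3 than in E0771 (Cd3d lost) and 2, Cd3e and Cd8a, were higher in 2208L than in T11. Gzmb differed by -5.18 and Gzma by -3.91 between AT3 and E0771 on that scale. With that scaling and no filter on low counts, 2 members, Gzma and Gzmb, were lower in AT3 than in E0771. Shares of all genes called with that scaling are not given here.

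In neutrophils no member differed between tumours in the test of any difference (0 of 7 tested, where 31.4% of 18158 genes did). At an unadjusted p below 0.05 the count was also 0, and DESeq2 called 0. Cd3g and Nkg7 were under the filter on low counts there. Without the third AT3 library Gzmb passed (adjusted p = 0.040), and without the first AT3 library 1 member passed, one of those that the filter removed when all libraries were used. Gzmb, for example, had 30.7, 24.5 and 24.8 CPM in T11 neutrophils, 1.11, 11.0 and 9.32 in 2208L, 21.5, 16.4 and 14.9 in E0771 and 3.16, 4.03 and 28.6 in AT3. Its T11 values were above those of 2208L, and 1 AT3 library was as high as T11. Cd8a was spread from 10.1 to 28.9 CPM with overlap between all tumours except T11 and 2208L.

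Between tumours of one strain, Gzma was lower in 2208L than in T11 neutrophils (log2 difference -1.65 ± 0.64, adjusted p = 0.0452, where 12.5% of genes were lower), with 19.4, 14.3 and 14.4 CPM in T11 and 1.11, 3.37 and 5.33 in 2208L. Every other fit tried lost this call, and so did leaving out any of 9 of the 12 libraries. Between AT3 and E0771 neutrophils 0 of 7 members passed, where 4.19% of genes did, 0 passed at an unadjusted p below 0.05, and DESeq2 called 0. Without the first AT3 library Prf1 was lower in AT3 (-2.15, adjusted p = 0.038).

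Whether macrophages or neutrophils held more of these transcripts depended on the tumour. The difference between the sorts depended on the tumour for 6 of 9 members (interaction, 27.5% of 20364 genes): Gzmb (adjusted p = 0.000241), Cd8a (0.000802), Gzma (0.000929), Cd3d (0.0166), Prf1 (0.0257) and Cd3e (0.0372). Cd3e lost this call when any of 13 libraries was left out and Prf1 when any of 5 was. Scaled to receptor-gene counts, Gzma (0.00875) and Gzmb (0.00275) kept it and the others did not.

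In E0771 tumours Gzma and Gzmb were higher in macrophages than in neutrophils, by 2.56 ± 0.68 (adjusted p = 0.00488) and 2.14 ± 0.62 (0.0106) on the log2 scale, 2 of 9 members where 13.2% of genes were higher. In AT3 tumours 4 of 9 were lower in macrophages (28.7% of genes): Gzmb by -3.49 ± 1.00, Cd3d by -2.32 ± 0.88, Cd8a by -2.20 ± 0.67 and Klrk1 by -1.96 ± 0.70. In T11 tumours 4 were lower (36.4% of genes): Prf1 by -2.99 ± 0.88, Gzma by -2.69 ± 0.88, Gzmb by -2.32 ± 0.75 and Cd8a by -2.10 ± 0.63. Receptor genes were lower in macrophages of these tumours too, by medians of -2.40 in AT3 and -2.42 in T11. Over the 9 members the medians were -1.76 and -2.06. No member was above background in either sort of AT3 or T11, so these differences lie between levels near background. Without the third E0771 neutrophil library Gzmb lost its call in E0771 (adjusted p = 0.056), and without the third AT3 neutrophil library in AT3 (0.185). In AT3, Cd3d lost its call without any of 4 libraries (the first 2 of each sort) and Klrk1 without the first or the third macrophage library. With factors from genes above background neither granzyme passed in E0771, and scaled to receptor-gene counts Cd8a turned to 0.052 in T11 and 0.058 in AT3 and Klrk1 to 0.34 in AT3. In 2208L tumours Cd3e alone was higher (1.81 ± 0.60, adjusted p = 0.048, where 5.12% of genes were higher), and it lost the call in 11 of the 24 fits that left out 1 library.

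Averaged over the 4 tumours, Gzmb (-0.91 ± 0.40) and Prf1 (-0.86 ± 0.39) were lower in macrophages, 2 of 9 where 45.7% of genes were lower, on a scale where the median over all genes was -0.53 and over receptor genes -1.88. The direction depends on the scale: with factors from genes above background 8 of 9 were lower. Scaled to receptor-gene counts 7 of 9 were higher, and Gzmb and Prf1 (0.61 and 0.75) did not pass. A change of scale shifts all genes of a library together, so these counts are no result about the members. Shares of all genes on these scales are not given here. With the main scaling, Gzmb lost its call when any of 8 libraries was left out and Prf1 when any of 10 was. In that scaling 0 members passed without the third 2208L macrophage, the third T11 macrophage or the first E0771 neutrophil library.

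**Figure D4:**
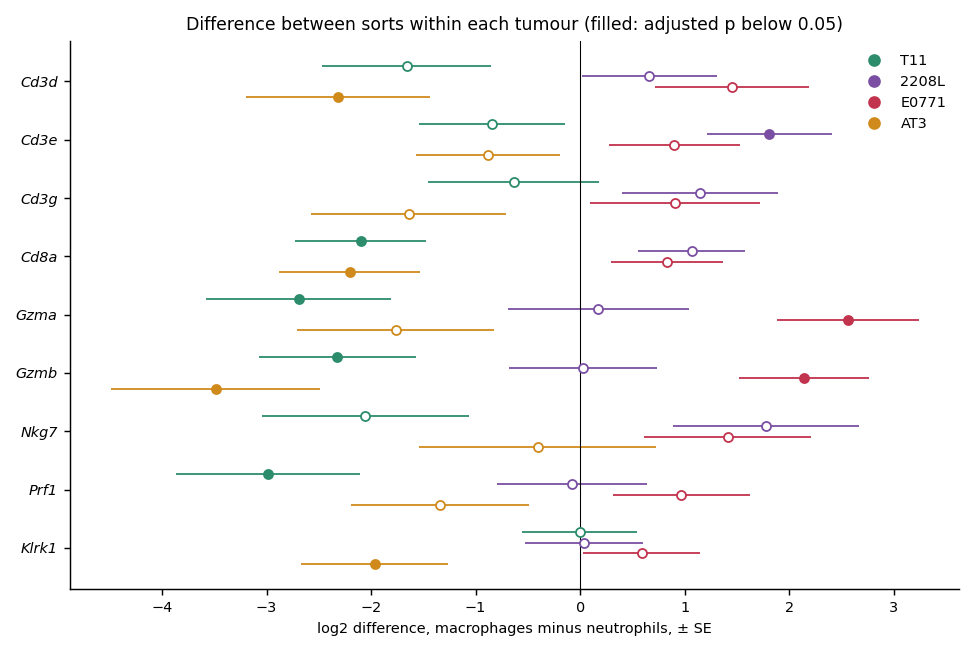
Log2 differences, macrophages minus neutrophils, with their SE for the 9 genes in each tumour, filled at an adjusted p below 0.05. Gzma and Gzmb of E0771 lie to the right at 2.56 and 2.14, and filled points of T11 and AT3 lie to the left.

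T cell genes on wider lists, which overlap the members, differed between the macrophages of the same tumours. On a list of 22 T cell markers (Cd3d, Cd3e, Cd3g and Cd8a included), 16 of the 20 tested differed between tumours, where 35.5% of all genes did. The members Cd3d, Cd3e and Cd8a, reported above, are among the 16. In 2208L 11 were higher than in T11 and 0 lower (7.77% and 7.9% of genes), and in AT3 11 were lower than in E0771 and 0 higher (8.69% and 9.68% of genes). The median log2 difference over the list was 2.27 and -2.42, against 0.06 and -0.06 over all genes and 1.08 and -1.44 over the 27 receptor genes tested, which moved the same way. The co-receptor Cd4 had 70, 58 and 100 counts in E0771 macrophages and 9, 17 and 7 in AT3 (-2.96 ± 0.40, adjusted p = 3.88e-06). The surface protein Thy1 had 34, 32 and 36 counts in 2208L and 0, 4 and 4 in T11 (3.88 ± 0.68, 8.39e-05). The cytokine receptor gene Il7r and the costimulator Icos differed likewise between AT3 and E0771 (-2.40 ± 0.36 and -3.74 ± 0.77). Of 11 tested genes of T cell receptor signalling, 9 differed (35.5% of all genes), among them the kinase genes Zap70 and Lck and the adaptor Lat. This list shares Zap70, Lck and further genes with the first. Zap70 was lower in AT3 by -5.58 ± 1.11. Lat went against this order, with 24, 35 and 10 counts in T11 macrophages and its highest mean CPM there.

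NK cell genes differed too. Their list summed to 308 ± 135 CPM (SD, n = 3) in E0771 macrophages, 114 ± 14.5 in 2208L, 50.7 ± 10.6 in AT3 and 33.3 ± 5.6 in T11. In the lines it summed to 118 ± 113 CPM (n = 21), and group means in neutrophils ran from 285 to 436 CPM. Of the 17 NK markers listed only 9 passed the filter on low counts. Of these 6 differed between tumours (35.5% of all genes), and 4 were lower in AT3 than in E0771 (8.69% of genes). Above background were 7 of the 17 in E0771 macrophages, near the 40.2% of all genes, and 2 in 2208L, below the 38.7%. In T11 and AT3 it was 1 each (43.7% and 44.0%). Il2rb, a chain of the interleukin-2 and interleukin-15 receptors, had 44, 116 and 101 counts in E0771 macrophages and 5, 1 and 5 in AT3 (-4.73 ± 0.58). The chemokine Ccl5 had 20, 40 and 93 counts against 2, 4 and 0 (-4.70 ± 0.77), and Eomes, a T-box transcription factor gene, differed by -3.49 ± 1.15. Ccl5 was above background in the cultured lines as well, at 22.2 times the receptor rate. Ncr1, the defining NK receptor gene, did not pass (adjusted p = 0.212), with 5, 10 and 5 counts in E0771. Klra4 and Klra8 were at 0 in all macrophage groups. They were also at 0 in the 21 line libraries and, apart from 1 Klra8 count in AT3, in neutrophils. They lacked even background counts, so their zeros are no measure of NK cells.

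Other granule genes split. Gzmc, Gzmd, Gzmf and Gzmg, further granzymes, were above background in E0771 macrophages and in no other sorted group, at 26.4, 15.3, 24.9 and 10.5 times the receptor rate, and were under the filter, so the difference was not tested. All 13 Gzmg counts came from 1 library. Gzmm too was above background in E0771 macrophages only. Gzme was above it in 2208L macrophages only, Ctsw in 2208L and AT3 macrophages, and Gzmk in no sorted group. Of the 14 genes listed, 11 were above background in E0771 macrophages and 7 in 2208L (40.2% and 38.7% of all genes). In T11 and AT3 it was 5 each (43.7% and 44.0%). Serpinb9, an inhibitor of granzyme B, was lower in AT3 (-2.55 ± 0.51). In contrast, Srgn, Ctsc and Lamp1, granule and lysosome genes that macrophages also express, were higher in AT3 than in E0771 (2.20 ± 0.34, 1.39 ± 0.26 and 1.08 ± 0.24). Among genes of the NKG2D receptor, Tyrobp, an adaptor macrophages also use, was higher in AT3 (1.24 ± 0.28) and the adaptor Hcst did not pass (adjusted p = 0.692).

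Markers of other cell types moved in the same libraries, and their counts are read against the 35.5% of all genes that differed between tumours in macrophages. The dendritic cell list summed to 408 ± 184 CPM (SD, n = 3) in E0771 macrophages, 96.1 ± 39.9 in 2208L, 30.9 ± 5.5 in T11 and 24.9 ± 6.0 in AT3, with 4 of 6 tested genes different. Its chemokine receptor gene Ccr7 had 84, 216 and 427 counts in E0771 macrophages and 2, 14 and 3 in AT3 (-5.36 ± 0.55). The B cell list summed to 181 ± 80.2, 172 ± 36.9, 43.3 ± 9.4 and 34.5 ± 6.3 CPM in 2208L, E0771, T11 and AT3 macrophages. Of tested genes, 3 of 7 B cell and 2 of 5 mast cell genes (Kit and Tpsb2) differed, near the share of all genes. By direction, 3 of 7 B cell genes were higher in 2208L than in T11 (7.77% of genes, median 1.72). In AT3, 1 B cell gene (median -1.74) and 2 of 5 mast cell genes (median -2.32) were lower than in E0771 (8.69% of genes). No mast cell gene passed between 2208L and T11. Above background were 6 of 10 B cell genes in 2208L macrophages and 5 in E0771 (38.7% and 40.2% of all genes). In T11 and AT3 it was 2 each (43.7% and 44.0%).

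Epithelial genes of tumour cells moved with the T cell genes between 2208L and T11. Their list summed to 402 ± 95.3 CPM in 2208L macrophages, 126 ± 29.5 in AT3, 84.5 ± 31.7 in E0771 and 25.4 ± 5.0 in T11. The AT3 sum was mostly 1 gene, Cdh1, at 111 CPM. Only Krt18 and Cdh1 of the 7 genes listed were above background there (44.0% of all genes). In 2208L 5 of 6 tested were higher than in T11 (7.77% of genes), with a median log2 difference of 3.69, larger than the 2.27 of the T cell list. The keratin gene Krt8 had 51, 79 and 53 counts in 2208L and 2, 4 and 1 in T11 (4.90 ± 0.65), and Cdh1, which encodes E-cadherin, differed by 3.96 ± 0.41. Between AT3 and E0771 1 epithelial gene was higher, Cdh1 (2.10 ± 0.36), and 1 lower, Krt8 (-4.39 ± 0.83).

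Macrophage markers moved too. In 2208L 8 of 11 were higher than in T11 and 1, Cd68, was lower, with a median of 1.57, in the same direction as the T cell genes. In AT3 7 of 11 were higher than in E0771 and 0 lower, with a median of 1.06, opposite to the T cell genes. Of 6 neutrophil markers tested, Csf3r, Mmp8 and Il1r2 were higher and Mmp9 lower in 2208L than in T11, with a median of 2.10, and 1, Il1r2, was lower in AT3 than in E0771. The part of any of these cells in the T and NK cell result was not tested.

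**Figure D5:**
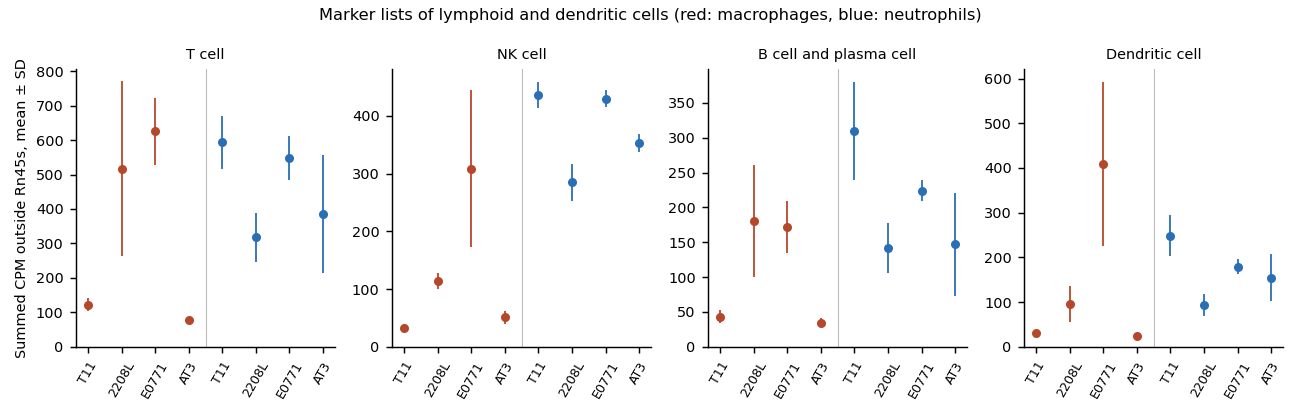
Summed CPM outside Rn45s of 4 marker lists in each sorted group (mean and SD of 3 libraries; red, macrophages; blue, neutrophils). Among macrophages, T cell, NK cell, B cell and dendritic cell sums are all higher in 2208L and E0771 than in T11 and AT3. Dendritic cell sums are highest in E0771 macrophages at 408 CPM. For each list the T11 neutrophil sum lies above that of 2208L macrophages, at 593 against 517 CPM for T cells and 436 against 114 CPM for NK cells.

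Genes whose levels tracked the members most closely are given as a description over 12 libraries that share a sort, depth and tumours. In macrophages, the sum of the 3 CD3 chains correlated best with Col25a1 and Lck (Pearson r = 0.93 each), Clmn, Thy1 and Crispld2, and the sum of Gzma, Gzmb, Nkg7 and Prf1 with Adcy6 (0.95), the interleukin-2 receptor gene Il2ra (0.94), Stap1, Fcrl5, Nfkbib and Mzf1. The same sums had r of 0.74 and 0.60 with the receptor CPM. In neutrophils, the CD3 sum correlated with Prkci, Ginm1, Odf2l, Ccm2l and Zfp369 and the granule sum with Vwa5b1, Rfx8, Opn3, Npy4r, Ccdc64b and Strc, at r of 0.90 to 0.97, and had r of 0.51 and 0.74 with the receptor CPM.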

How the data were processed

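RNA was sorted into TRIzol LS and libraries were made from total RNA, per the labels' protocols. Per the submitters' processing notes, base calls went through bcl2fastq 2.17 and STAR 2.4.2a placed the reads on mm10. The authors deposited raw counts for 24054 gene symbols; the counting program, its annotation and strand use are not given in the sources used here. Of 48 libraries, 45 were used and 3 columns that match no label were not. Symbols were matched to GENCODE M21 (mm10) for exon lengths and coordinates: 22750 by symbol and 935 by synonym. Ly6g, Trac, Trbc1 and Trbc2 are not analysed here.

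The main test was edgeR's quasi-likelihood test (version 4.0.16, in R 4.3.3; TMM factors, filterByExpr by group with a minimum count of 10, Benjamini-Hochberg adjustment over all genes tested, called below 0.05), on 24 sorted libraries between sorts and 12 within a sort. DESeq2 1.42.0, RLE factors, no filter, no Rn45s, a replicate block, factors from genes above background and leaving out each library were alternatives. Scaling to receptor-gene counts and a replicate block within tumours were added after seeing the data. The test was checked on simulated counts. Summaries used Python 3.11.15 with pandas 2.3.3. Likeness used log2(CPM + 1) of genes of at least 10 CPM.

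The 9 members, the lists, the 3 promoter motifs and the rule for named genes were chosen with earlier results of these data known. The rule names all members, up to 4 genes a list with the smallest adjusted p between tumours or the largest difference between sorts, and the 6 genes most like each sum. Gzmc, Gzmd, Gzme, Gzmf, Gzmg, Gzmk, Gzmm, Ctsw, Ncr1, Hcst, Klra4 and Klra8 were named after their values were seen. Some genes that the rule names are given only within counts, and 2 of the genes most like a sum are not reported here.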

Additional observations from a re-analysis of the deposited data

Results flagged for a closer look

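For 6 of the 9 transcripts, the difference between macrophages and neutrophils depended on the tumour in edgeR's interaction test: Gzmb (adjusted p = 0.000241), Cd8a (0.000802), Gzma (0.000929), Cd3d (0.0166), Prf1 (0.0257) and Cd3e (0.0372). Gzmb was higher in macrophages of E0771 tumours by 2.14 ± 0.62 on the log2 scale (SE) and lower in those of AT3 by -3.49 ± 1.00 and T11 by -2.32 ± 0.75. Receptor-gene levels moved between the sorts and the tumours too, and scaled to them only Gzma and Gzmb passed.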

How the results depend on the processing

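Within macrophages, the count of members that differed between tumours was 6 to 9 under every alternative (8 as reported) and 6 to 8 when 1 library was left out. AT3 against E0771 gave 4 to 7 (7 as reported) when 1 library was left out, and 2 scaled to receptor-gene counts with no filter on low counts. 2208L against T11 gave 2 to 4 throughout (3 as reported).

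In neutrophils, any difference was called for 0 members under every other fit and for 0 to 1 when 1 library was left out, and AT3 against E0771 likewise for 0 to 1. The single call of 2208L against T11 fell to 0 under RLE factors, no filter, Rn45s removed, DESeq2, the replicate block, receptor scaling with and without a filter, and the fit of all 24 sorted libraries, and to 0 to 1 when 1 library was left out.

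Between the sorts the counts moved with the scale, which shifts all genes of a library together. Shares of all genes called under these alternatives are not given here. The mean difference called 4 members under RLE factors, 5 under DESeq2, 1 with the replicate block, across or within tumours, 8 with factors from genes above background, 7 scaled to receptor-gene counts, with or without a filter, and 0 to 3 when 1 library was left out. T11 gave 7 under DESeq2, 9 with factors from genes above background, 1 scaled to receptor-gene counts (with or without a filter), and 4 to 6 when 1 library was left out. 2208L gave 0 under RLE factors, DESeq2, the replicate block (across or within tumours) and factors from genes above background, 4 scaled to receptor-gene counts (with or without a filter), and 0 to 1 when 1 library was left out. E0771 gave 0 with factors from genes above background, 8 scaled to receptor-gene counts (with or without a filter), and 1 to 2 when 1 library was left out. AT3 gave 8 with factors from genes above background, 0 scaled to receptor-gene counts (with or without a filter), and 3 to 4 when 1 library was left out. The interaction gave 2 scaled to receptor-gene counts (with or without a filter) and 4 to 7 when 1 library was left out.

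Directions with a call on either side turned between the sorts only, and the cause was not tested. Scaled to receptor-gene counts, with or without a filter, the mean log2 difference was 1.04 for Cd3d, 1.48 for Cd3g, 0.94 for Cd8a, 1.09 for Gzma, 0.61 for Gzmb, 0.75 for Prf1 and 1.27 for Klrk1. Within tumours it was 0.052 for Cd8a and 2.20 for Klrk1 in T11, and 0.058 for Cd8a and 0.34 for Klrk1 in AT3. With factors from genes above background the mean for Cd3e was -0.80. Directions of members without a call also turned within a sort when 1 library was left out: Klrk1 between 2208L and T11 macrophages (as low as -0.23), Cd3e and Klrk1 between 2208L and T11 neutrophils, and Cd3e, Cd8a, Gzmb and Klrk1 between AT3 and E0771 neutrophils.

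The number of gene and group pairs above background, 11 as reported, was 28 at a ratio of 5, 4 at a ratio of 20 and 9 to 12 when 1 library was left out. Macrophage and neutrophil libraries of a tumour share numbers in the deposited column names, and the labels do not say whether a number marks an animal. Of the 12 such pairs within a tumour 1 had deviations correlated over 0.1. Across all groups, libraries were paired by the replicate number of their sample titles, which differs from the column numbers. Of 84 pairs with the same title number 4 were over 0.1 (median r of -0.000481), and of 168 with different numbers 11 were. Of 24 libraries 9 correlated best with others of their own title number. A replicate block within tumours, added after seeing the data, ended the calls of Prf1 on average (adjusted p = 0.0708), Cd3e in 2208L (0.0567) and Cd3d in AT3 (0.055), and Nkg7 gained one in T11 (0.0453). Apart from the counts of 1, 0 and 0 above, either block left every count of members within 1.5 times the reported one. With 0 to 62 counts per gene in a macrophage library, small differences could not be detected at this depth.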
